A study of Mus musculus with 6 samples.

Results

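Genes of the major histocompatibility complex (MHC, named H2 in the mouse) and of antigen presentation were followed in mouse gastric corpus epithelium, in 3 libraries of Yap-activated gastric cancer and 3 libraries of normal stomach (Normal). The members are the rows of the count table whose symbol starts with H2- and 10 further genes, B2m, Tap1, Tap2, Tapbp, Nlrc5, Ciita, Cd74, Cd1d1, Erap1 and Mr1, which makes 44 of 21526 symbols. The Yap-activated mice carried CreERT2 at Clu (a tamoxifen-dependent Cre driven by that gene's promoter), rtTA at Rosa26 (an activator that needs doxycycline) and an HA-tagged Yap transgene, and the Normal mice were wild type without these alleles, so that Yap and the other alleles cannot be told apart as the source of a difference. Mice of both groups were given 2 mg tamoxifen on 5 days in a row and then doxycycline food for 14 days until the end of the experiment. The epithelium was released with EDTA and used without culture, and RNA was read as stranded poly(A) libraries with paired reads of 50 bp. The labels give neither the age, sex or strain of the mice nor whether each library came from a separate mouse.

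MHC class I molecules show peptides from inside the cell to CD8 T cells and are made by nearly every nucleated cell. A class I heavy chain pairs with the light chain beta-2-microglobulin (B2m) in the endoplasmic reticulum, where the Tap1-Tap2 transporter delivers peptides, tapasin (Tapbp) bridges transporter and heavy chain, and Erap1 trims the peptides. Class II molecules are alpha-beta heterodimers that show peptides from endosomes to CD4 T cells. They are made by dendritic cells, macrophages and B cells, and by epithelial cells under interferon gamma, and they travel with the invariant chain Cd74 and exchange peptides with the help of H2-DM. Nlrc5 drives transcription of class I genes and Ciita that of class II genes, both through the same kind of promoter module.

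By class, 30 members belong to class I, 11 to class II and 2 (Cd1d1 and Mr1) are class I-like molecules that show lipids or metabolites. The remaining one, H2-Ke6, lies in the H2 region but encodes a hydroxysteroid dehydrogenase and no MHC molecule. In all, 32 members passed the filter on low counts (about 10 reads in at least 3 libraries) and were tested. The other 12, which are H2-Eb2, H2-Oa, H2-Ke6 and 9 genes of the M region, had at most 15 reads in any library, and 5 of these M region genes had no read at all. H2-M5, H2-Q1 and H2-T3 reached the minimum in every Yap-activated library but not in most Normal libraries, so that they entered the test through the group in which they were higher.

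Library totals ran between 25580734 and 44295619 reads in Yap-activated tissue and between 36815754 and 48440033 reads in Normal tissue. Yap1 itself stood between 1468 and 3085 CPM (counts scaled to a common library size with TMM factors) in Yap-activated libraries, against 100.3 to 106 CPM in Normal libraries. The 4 epithelial markers Epcam, Cdh1, Krt8 and Krt18 were present in all libraries, at a summed level of 7348 to 8218 CPM in Yap-activated tissue and 3450 to 4236 CPM in Normal tissue. Yap-activated replicate 3 stood apart from the other Yap-activated libraries at many members. It was the highest Yap-activated library for all 9 tested class II members and for 16 of 21 tested class I members, against 4671 of 14600 genes (32%) in the whole table. Values without it are given beside the results in which it moved a call or a size.

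Of the 32 members tested, 7 were higher and 1 was lower in Yap-activated tissue at an adjusted p under 0.05 (quasi-likelihood F-test of edgeR, adjusted after Benjamini and Hochberg over 14600 genes). That is 25.0% of the tested members, where 59.5% of all genes tested were called in this comparison. By direction the background was 29.8% of all genes called higher and 29.7% called lower. In 10 members (31.2%) the groups did not overlap, 8 higher and 2 lower in Yap-activated tissue, against 67.6% of all genes (33.2% higher and 34.4% lower). Of the 9 class II genes tested, 4 were called higher and 5 did not pass, and the log2 fold changes, all above 0, had a median of 1.42. Class I genes were divided, with 8 positive and 13 negative log2 fold changes, a median of -0.12, 3 called higher (H2-Q2, H2-Q4 and the rarely read H2-M5, which entered the test only through the Yap-activated group) and 1 called lower (B2m). Over all genes tested the median was 0.01, with 7394 of 14600 log2 fold changes above 0. Neither of the 2 class I-like genes passed with edgeR, DESeq2 or voom, and 0 of them had an unadjusted p under 0.05 with edgeR. Without Yap-activated replicate 3 the class II median was 0.62 with 2 called higher and with H2-Eb1 (-2.48), H2-DMb1 (-0.75) and Cd74 (-0.0038) below 0, and the class I median was -0.38 with 3 called higher and 5 called lower. Class II calls also moved with other libraries, to 7 higher without Yap-activated replicate 1, 5 without Yap-activated replicate 2, and 1, H2-Ab1, without any 1 of the Normal libraries. Class I calls numbered 3 lower without Normal replicate 1, and 2 and 1 higher without Normal replicates 2 and 3. The share of all genes called also fell, to 55.7%, 57.4% and 57.7% without Yap-activated replicates 1, 2 and 3. It was 52.5%, 48.5% and 48.1% without Normal replicates 1, 2 and 3.

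**Figure D1:**
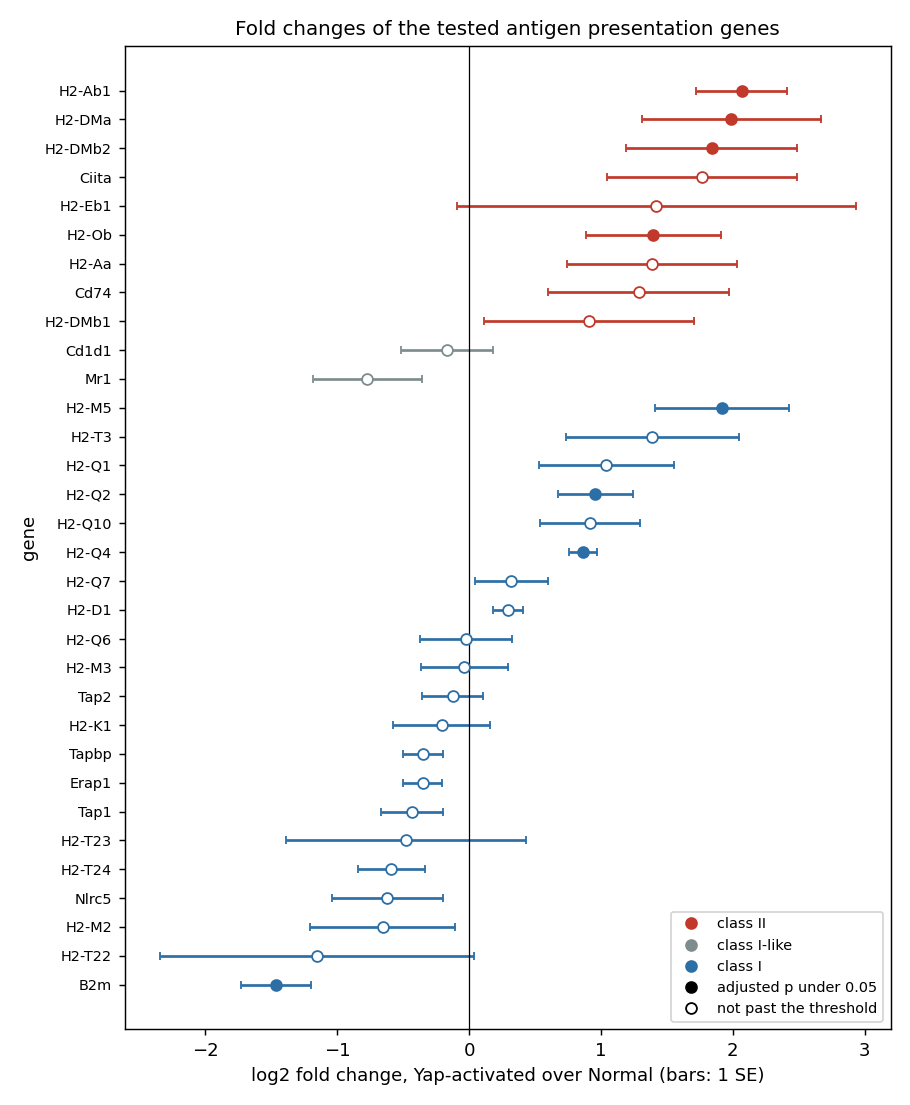
Log2 fold change of Yap-activated over Normal tissue (horizontal axis) for the 32 tested members, class II on top, then class I-like and class I, with bars of 1 SE. Filled points passed the adjusted p threshold; all 9 class II points lie right of 0, while B2m is the lowest class I point at -1.46.

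The promoters of 5 members are shown because the data set them apart: B2m fell, H2-Q4 rose, H2-K1 did not pass, and H2-Aa and H2-Eb1 were highest in Yap-activated replicate 3. Each line gives the 180 bases before the annotated RefSeq start (GRCm38.p6), 5′ to 3′ on the strand of the gene. Capitals mark letters searched on both strands, chosen after the values were known: GATTGG, the core of the Y box, GAANNGAAA and GAAANNGAA, which resemble interferon-stimulated elements and may overlap each other, and GGGGATTCC, a kappaB site.
B2m, chr2:122147507-122147686, plus strand: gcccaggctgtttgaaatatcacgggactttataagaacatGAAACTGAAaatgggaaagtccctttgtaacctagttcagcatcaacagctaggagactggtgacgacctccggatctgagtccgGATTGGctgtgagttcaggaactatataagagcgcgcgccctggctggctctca
H2-Q4, chr17:35379437-35379616, plus strand: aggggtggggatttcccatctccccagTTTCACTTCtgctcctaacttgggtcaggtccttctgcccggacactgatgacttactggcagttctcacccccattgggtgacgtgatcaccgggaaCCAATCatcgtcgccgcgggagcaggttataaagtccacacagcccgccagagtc
H2-K1, chr17:34000348-34000527, minus strand: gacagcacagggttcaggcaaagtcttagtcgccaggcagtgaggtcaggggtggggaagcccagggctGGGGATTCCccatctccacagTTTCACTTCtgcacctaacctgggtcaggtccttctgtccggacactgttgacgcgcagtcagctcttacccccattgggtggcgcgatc
H2-Aa, chr17:34287824-34288003, minus strand: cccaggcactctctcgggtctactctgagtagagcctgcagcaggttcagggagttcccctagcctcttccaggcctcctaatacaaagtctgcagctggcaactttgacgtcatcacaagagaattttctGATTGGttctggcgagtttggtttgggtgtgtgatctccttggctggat
H2-Eb1, chr17:34305687-34305866, plus strand: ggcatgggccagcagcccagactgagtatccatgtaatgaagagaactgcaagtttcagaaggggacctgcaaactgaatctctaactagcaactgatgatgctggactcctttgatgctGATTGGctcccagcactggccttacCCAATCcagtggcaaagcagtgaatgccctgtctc
GATTGG began 54 bases before the start in B2m, 55 in H2-Q4, 49 in H2-Aa, and 60 and 35 in H2-Eb1. The H2-K1 stretch shown holds no complete GATTGG, but the longer promoter window read for that gene (described below) does. GAAANNGAA began 139 bases before the start in B2m, and GAANNGAAA began 153 bases before it in H2-Q4 and 90 in H2-K1. GGGGATTCC began 111 bases before the start of H2-K1. Only this exact spelling of a kappaB site was searched, so kappaB sites of other spellings in the stretches shown would not be marked. Part of the H2-Q4 stretch is also an exon of the antisense gene Gm11131, the H2-Eb1 stretch also meets an exon of another annotated gene, and the last base of the B2m stretch is the first of its own GENCODE exon.

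A RefSeq promoter window (300 bases, 250 before and 50 after a start) was found for 36 of the 44 members. GATTGG was in windows of all 8 class II genes and 18 of 26 class I genes with a window, against 16.1% of all 32851 windows. GAANNGAAA was in 8 of 26 class I genes and none of 8 class II genes, against 7.52% of all windows, and GAAANNGAA in 4 of 26 class I genes (B2m, Erap1, H2-T22 and H2-T23) and none of 8 class II genes, against 8.56%. GGGGATTCC was in H2-D1, H2-K1, H2-Q6 and H2-Q7, against 0.25% of all windows. The letters describe these windows and were not tested as binding sites. Other spellings of such sites were not searched, so a window without the letters may still hold one.

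B2m encodes the light chain shared by class I heavy chains and by Cd1d1 and Mr1, and it lies on chromosome 2 (122147686 to 122153083, plus strand, GRCm38). It had 64.9, 76.4 and 129 CPM in Yap-activated libraries, against 211, 286 and 251 CPM in Normal libraries. All 3 Yap-activated libraries lay below all 3 Normal libraries. B2m fell by 1.46 on the log2 scale (SE 0.27, adjusted p = 0.0025, edgeR), which is 2.76-fold lower, at 90.3 ± 34.4 CPM in Yap-activated and 249 ± 37.3 CPM in Normal tissue (SD, n = 3). Its log2 fold change lay between -1.81 and -0.97 over all alternative settings and passed the threshold in each of them. Because RNA was measured over all cells together, fewer cells that express a gene and less of its RNA per cell cannot be told apart here or below. Summed markers of endothelium, a cell type rich in class I, ran between 15.3 and 30.4 CPM in Yap-activated libraries, against 75.6 to 92.7 CPM in Normal libraries, with 3 of 3 lower and none at 0, and those of fibroblasts between 224 and 364 CPM in Yap-activated libraries, against 476 to 721 CPM in Normal libraries, with 1 of 3 lower. Among all genes tested, 29.7% were called lower in this comparison. Summed markers of antigen-presenting cells and other leukocytes ran the other way. They stood between 77.5 and 282 CPM in Yap-activated libraries, against 65.0 to 72.9 CPM in Normal libraries. The part of these cell types in the B2m result was not tested.

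The classical heavy chains H2-K1 and H2-D1, which present peptides to CD8 T cells, did not pass. H2-D1 (chromosome 17, 35262730 to 35267499, plus strand) had 617, 622 and 613 CPM in Yap-activated libraries, against 505, 524 and 479 CPM in Normal libraries. The groups did not overlap, but the log2 fold change of 0.30 (SE 0.11) did not pass (adjusted p = 0.0534, edgeR), and it passed with DESeq2's test (adjusted p = 0.00119), with voom (0.0365) and with 4 other settings. H2-K1 (chromosome 17, 33996017 to 34000347, minus strand) had 164, 218 and 356 CPM in Yap-activated libraries, against 167, 368 and 317 CPM in Normal libraries. Its groups overlapped widely, at -0.21 on the log2 scale (SE 0.37, adjusted p = 0.651, edgeR), and in both groups replicate 1 was the lowest library. Without Yap-activated replicate 3 it was at -0.56 and without Normal replicate 1 at -0.49, again without passing.

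Levels were also read per kilobase of annotated exon, a scale on which different genes can be compared only approximately. B2m averaged 105 CPM per kb in Yap-activated and 290 CPM per kb in Normal tissue. H2-D1 averaged 239 CPM per kb in Yap-activated and 195 CPM per kb in Normal tissue, and H2-K1 83.6 and 96.6 CPM per kb in Yap-activated and Normal tissue. The ratio of B2m to the sum of H2-K1 and H2-D1 on this scale, chosen after the values were seen, was 0.256, 0.282 and 0.419 in Yap-activated libraries, against 0.972, 1.01 and 0.994 in Normal libraries. The ratio was thus lower in every Yap-activated library than in every Normal library, with no overlap. Its absolute size depends on the annotated exon lengths, so it does not give the balance of light and heavy chain transcripts.

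**Figure D2:**
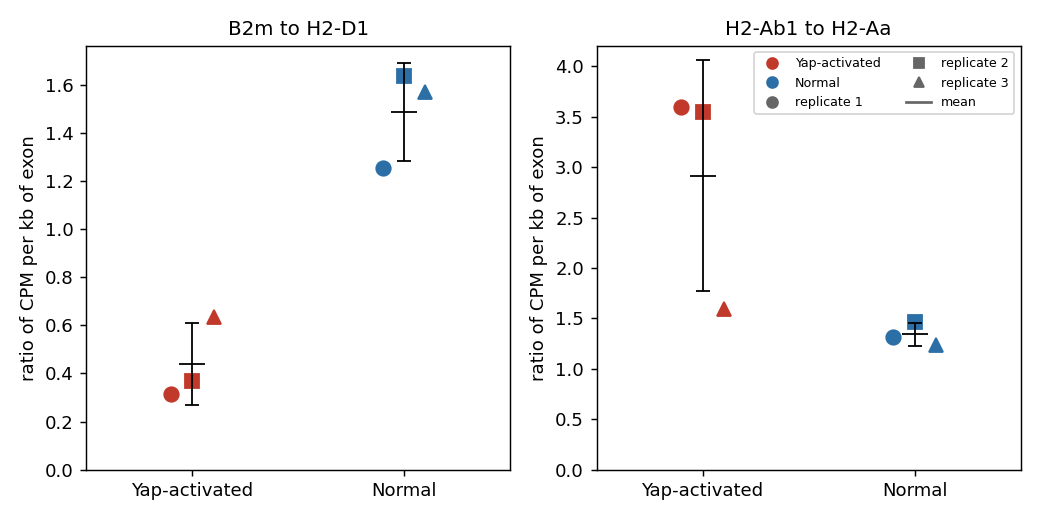
Ratio of B2m to H2-D1 (left) and of H2-Ab1 to H2-Aa (right) in CPM per kb of exon for each library, with black bars for mean and SD (n = 3). B2m to H2-D1 lies between 0.316 and 0.633 in Yap-activated and between 1.25 and 1.63 in Normal libraries; H2-Ab1 to H2-Aa is 3.60, 3.55 and 1.59 in Yap-activated and 1.24 to 1.46 in Normal libraries.

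Among the 6 genes of the Q region, which encode class Ib heavy chains of narrower expression and less polymorphism, 2 rose and 4 did not pass, a share of 33.3% where 29.8% of all genes were called higher. H2-Q4 (chromosome 17, 35379617 to 35385290, plus strand) had 37.5, 38.7 and 39.6 CPM in Yap-activated libraries, against 23.3, 20.4 and 20.0 CPM in Normal libraries. The spread within each group was small beside the gap between them, and H2-Q4 rose by 0.86 on the log2 scale (SE 0.10, adjusted p = 2.58e-04, edgeR), past the threshold in every alternative setting. An antisense gene, Gm11131, overlaps an exon of H2-Q4, and the sources used here do not give the strand setting of the counting. H2-Q2 had 2.78, 2.15 and 3.11 CPM in Yap-activated libraries, against 1.22, 1.64 and 1.27 CPM in Normal libraries, and rose by 0.96 (SE 0.28, adjusted p = 0.0202, edgeR), a call lost without Normal replicate 1 (0.0667) or Normal replicate 3 (0.0751). The log2 fold changes of H2-Q1, H2-Q6, H2-Q7 and H2-Q10 lay between -0.02 and 1.04 and did not pass, though H2-Q10 passed with DESeq2's test (0.0485), with library totals alone (0.00992) and without Yap-activated replicate 1 (0.0288) or Normal replicate 1 (0.0465). Class I heavy chain genes are close paralogs, and the sources used here do not say how reads matching several of them were counted, so the division of reads among the K, D and Q genes is uncertain. Summed over these 8 genes, which does not depend on that division as long as the reads were counted once, the level was 830, 888 and 1026 CPM in Yap-activated libraries, against 704, 923 and 824 CPM in Normal libraries, and the groups overlapped.

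The peptide loading genes gave small negative log2 fold changes, between -0.43 and -0.12, and 0 of the 4 passed with edgeR, DESeq2 or voom, while 2 (Tapbp and Erap1) had an unadjusted p under 0.05 with edgeR. Tap1, a subunit of the peptide transporter, had 14.3, 13.1 and 24.3 CPM in Yap-activated libraries, against 22.7, 25.5 and 21.8 CPM in Normal libraries. Yap-activated replicates 1 and 2 lay below every Normal library and replicate 3 within their range. The log2 fold change of Tap1 was -0.43 (adjusted p = 0.145, edgeR), and -0.76 without Yap-activated replicate 3, where it passed (adjusted p = 0.00228). Exons of Tap1 are overlapped on the other strand by Psmb9, whose own values are given below. Tap2, the other subunit, had 16.0, 9.57 and 17.7 CPM in Yap-activated libraries, against 17.5, 15.8 and 14.0 CPM in Normal libraries, with overlapping groups and a log2 fold change of -0.12 (adjusted p = 0.661).

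Tapbp had 77.8, 80.5 and 95.6 CPM in Yap-activated libraries, against 87.2, 123 and 113 CPM in Normal libraries. Its log2 fold change of -0.35 did not pass (adjusted p = 0.0757, edgeR) but did without Yap-activated replicate 3 (0.0494) or Normal replicate 1 (0.0193). Erap1, the trimming peptidase, had 21.1, 27.4 and 26.0 CPM in Yap-activated libraries, against 26.8, 34.3 and 34.1 CPM in Normal libraries, at -0.35 on the log2 scale (adjusted p = 0.07). It passed without Normal replicate 1 (adjusted p = 0.0345) and with the replicate number as a block (0.0233). Nlrc5, the class I transactivator, had 3.25, 1.72 and 5.37 CPM in Yap-activated libraries, against 3.67, 6.58 and 5.72 CPM in Normal libraries. The groups overlapped, with a log2 fold change of -0.62 (adjusted p = 0.235), and of -1.11 without Yap-activated replicate 3 (adjusted p = 0.0399).

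**Figure D3:**
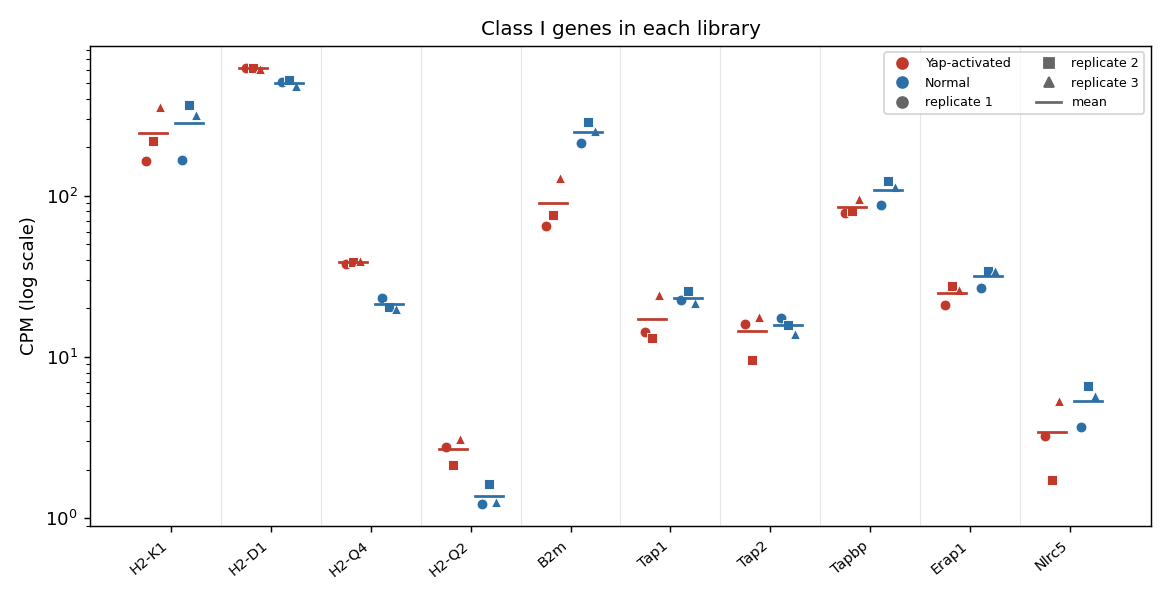
CPM on a log scale of 10 class I genes in each library, Yap-activated left of Normal within each gene, with a line at the mean of 3 libraries. B2m and H2-Q4 separate the groups in opposite directions, H2-D1 lies between 479 and 622 CPM in all libraries, and H2-K1 overlaps between groups.

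H2-T23, H2-T22 and H2-Eb1, all on chromosome 17, varied far more within the groups than between them. H2-T23, which encodes the Qa-1 heavy chain recognised by inhibitory receptors of natural killer cells, had 6.61, 5.73 and 40.9 CPM in Yap-activated libraries, against 6.47, 36.6 and 31.6 CPM in Normal libraries. H2-T22, whose product is a ligand of gamma-delta T cells, had 0.644, 0.787 and 8.67 CPM in Yap-activated libraries, against 0.961, 12.3 and 9.61 CPM in Normal libraries. H2-Eb1, the beta chain of the class II molecule I-E, had 1.39, 1.22 and 55.7 CPM in Yap-activated libraries, against 1.05, 11.1 and 9.77 CPM in Normal libraries. In all of them Yap-activated replicates 1 and 2 and Normal replicate 1 were low and the other libraries were high, so that the same division crossed the groups. Their log2 fold changes of -0.48, -1.16 and 1.42 had SEs of 0.91, 1.19 and 1.51 and did not pass. Without Yap-activated replicate 3 they were -2.01, -3.39 and -2.48, and H2-T22 passed (adjusted p = 0.0465, edgeR).

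A smaller division in the same order was present in 5 other members of the 32 tested, H2-K1, H2-Q6, Tapbp, Nlrc5 and Mr1, of which Nlrc5 and Mr1 lie on other chromosomes. Of all 8 members with this order, 6 lie on chromosome 17, as do 25 of the 32 tested. H2-T24 and H2-D1, also on chromosome 17, did not share it. H2-T22 (36037128 to 36042747) and H2-T23 (36029773 to 36032855) lie side by side on the minus strand, and H2-T24, the next gene (36005695 to 36020560), had 2.27, 1.67 and 2.45 CPM in Yap-activated libraries, against 2.94, 3.18 and 3.51 CPM in Normal libraries (log2 fold change -0.59, adjusted p = 0.0788, edgeR). H2-D1, between H2-Eb1 (34305867 to 34316674) and the T region on the chromosome, varied 1.01-fold among Yap-activated and 1.10-fold among Normal libraries. H2-Q6 (35424850 to 35430055), which had the order, lies between H2-Eb1 and the T region too. Among 13043 genes with a mean of at least 1 CPM, 29 spread over 4-fold within both groups (CPM + 0.1), a rule set after these values were seen. H2-Eb1, H2-T22 and H2-T23 were the 3 of them on chromosome 17. Because the size and the order were set from these 3 genes, the tally describes them and supports nothing. H2 genes differ in sequence between mouse strains, the reference genome is that of a single strain and the strain of these mice is not given, and its part in these counts was not tested.

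**Figure D4:**
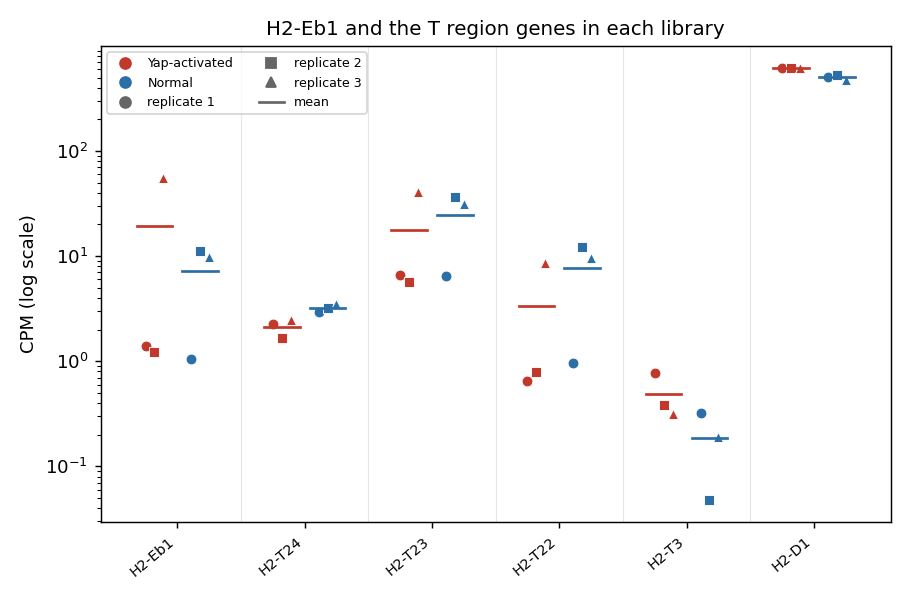
CPM on a log scale of H2-Eb1, 4 T region genes and H2-D1 in each library, Yap-activated left of Normal, with symbols for the replicate number and a line at the mean. H2-Eb1, H2-T23 and H2-T22 are low in the same 3 libraries across both groups, while H2-T24 and H2-D1 are not.

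Of the M region genes, H2-M3, which presents formylated peptides, had 3.22, 2.60 and 5.95 CPM in Yap-activated libraries, against 4.02, 4.49 and 3.60 CPM in Normal libraries, and a log2 fold change of -0.04 (adjusted p = 0.931). The log2 fold changes of H2-M2 and of H2-T3 in the T region, both under 1 CPM on average in both groups, were -0.66 and 1.39 and did not pass (adjusted p = 0.333 and 0.102). H2-M5 had 10, 12 and 19 reads in Yap-activated libraries, against 5, 2 and 2 reads in Normal libraries. It passed the low-count filter through the Yap-activated group alone, so that its log2 fold change of 1.92 (SE 0.51, adjusted p = 0.0123, edgeR) is given as a description, and its call was lost with DESeq2's test (0.0733) and without Normal replicate 2 (0.0654) or 3 (0.0596).

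Both class I-like genes pair with B2m. Cd1d1, which presents lipids to natural killer T cells, had 2.24, 2.31 and 4.93 CPM in Yap-activated libraries, against 4.11, 3.21 and 3.41 CPM in Normal libraries, and its groups overlapped (log2 fold change -0.17, adjusted p = 0.695, edgeR; -0.64 without Yap-activated replicate 3, adjusted p = 0.0637). Mr1, which presents microbial metabolites to mucosal-associated invariant T cells, had 3.36, 4.58 and 10.9 CPM in Yap-activated libraries, against 10.3, 11.8 and 10.3 CPM in Normal libraries. Yap-activated replicates 1 and 2 lay below all Normal libraries and replicate 3 among them. Its log2 fold change was -0.77 (adjusted p = 0.144), and -1.43 without Yap-activated replicate 3 (adjusted p = 0.00122).

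Among the class II chains, H2-Ab1, the beta chain of the molecule I-A, rose in every Yap-activated library. H2-Ab1 (chromosome 17, 34257689 to 34269419, plus strand) had 64.2, 76.9 and 155 CPM in Yap-activated libraries, against 24.9, 26.5 and 19.1 CPM in Normal libraries. It rose by 2.07 on the log2 scale (SE 0.35, adjusted p = 0.00204, edgeR), which is 4.19-fold, and by 1.59 without Yap-activated replicate 3 (adjusted p = 2.62e-04). It passed in every alternative setting, at log2 fold changes between 1.59 and 2.57.

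H2-Aa, the alpha chain that pairs with it, did not follow in replicates 1 and 2. H2-Aa (chromosome 17, 34282744 to 34287823, minus strand) had 26.4, 32.0 and 144 CPM in Yap-activated libraries, against 27.9, 26.8 and 22.8 CPM in Normal libraries. Yap-activated replicates 1 and 2 were close to the Normal range and replicate 3 was far above it, and the log2 fold change of 1.39 (SE 0.64) did not pass (adjusted p = 0.103, edgeR). Without Yap-activated replicate 3 it was 0.18 (adjusted p = 0.307). The ratio of H2-Ab1 to H2-Aa in CPM per kb was 3.60, 3.55 and 1.59 in Yap-activated libraries, against 1.32, 1.46 and 1.24 in Normal libraries.

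Cd74 and Ciita stood far higher in Yap-activated replicate 3 than in any other library. Cd74, the invariant chain (chromosome 18, 60803848 to 60812652), had 40.2, 62.7 and 276 CPM in Yap-activated libraries, against 52.0, 56.8 and 47.1 CPM in Normal libraries. It gave a log2 fold change of 1.28 (SE 0.68) that did not pass (adjusted p = 0.147, edgeR), and one of -0.0038 without Yap-activated replicate 3 (adjusted p = 0.988). Ciita, the class II transactivator, had 2.27, 1.88 and 9.58 CPM in Yap-activated libraries, against 1.43, 1.97 and 0.632 CPM in Normal libraries. It was at 1.77 on the log2 scale (SE 0.72, adjusted p = 0.0693), at 0.62 without Yap-activated replicate 3 (0.292), and passed without Yap-activated replicate 1 (0.0466) or 2 (0.0346) and with DESeq2's test (0.0137).

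Of the loading molecules that exchange class II peptides, H2-DMa, H2-DMb2 and H2-Ob were called higher, and for each of them all 3 Yap-activated libraries lay above all Normal libraries. H2-DMa had 4.07, 3.72 and 19.3 CPM in Yap-activated libraries, against 2.24, 2.83 and 1.77 CPM in Normal libraries, and rose by 1.99 (SE 0.68, adjusted p = 0.0398, edgeR). Without Yap-activated replicate 3 it was at 0.77 and passed (0.0485). Exons of H2-DMa overlap the gene Brd2 on the other strand. H2-DMb2 had 0.983, 1.15 and 4.54 CPM in Yap-activated libraries, against 0.845, 0.618 and 0.411 CPM in Normal libraries (log2 fold change 1.84, adjusted p = 0.0403). H2-Ob, part of an inhibitor of H2-DM, had 0.508, 0.549 and 1.54 CPM in Yap-activated libraries, against 0.349, 0.333 and 0.316 CPM in Normal libraries (1.40, adjusted p = 0.0448). Both calls were lost without Yap-activated replicate 3 (adjusted p = 0.15 and 0.184). The calls of H2-DMa, H2-DMb2 and H2-Ob were also lost without any 1 of the 3 Normal libraries (adjusted p between 0.0717 and 0.132), with voom (between 0.0795 and 0.0939) and with the replicate block (between 0.0818 and 0.126). H2-DMa and H2-Ob were lost with no filter (0.0613 and 0.0529), and H2-Ob with DESeq2's test (0.0688). H2-DMb1, the partner chain of H2-DMa, had 1.86, 1.53 and 12.6 CPM in Yap-activated libraries, against 3.26, 2.99 and 2.31 CPM in Normal libraries. Replicates 1 and 2 lay below all Normal libraries and replicate 3 above them, and the log2 fold change was 0.91 (adjusted p = 0.36), and -0.75 without replicate 3 (0.0632).

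**Figure D5:**
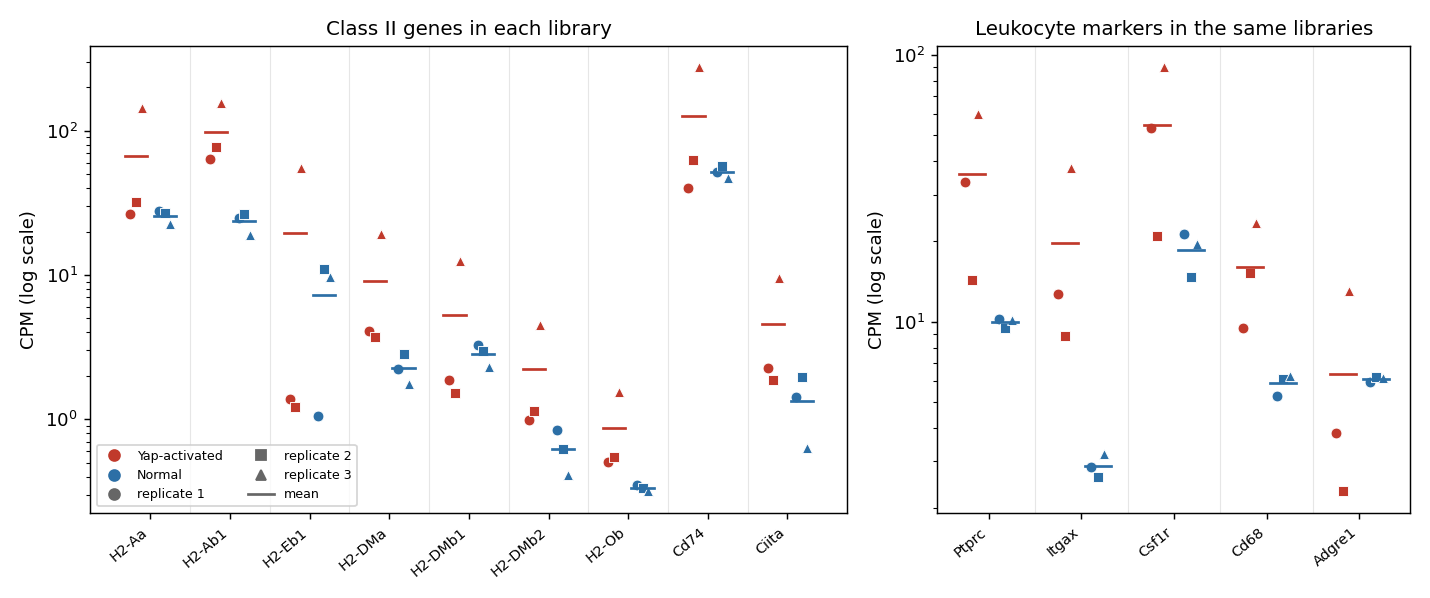
CPM on a log scale of 9 class II genes (left) and 5 leukocyte markers (right) in each library, Yap-activated left of Normal, with a line at the mean. Yap-activated replicate 3 is the highest library for every gene shown, and H2-Ab1 is the chain for which replicates 1 and 2 also lie well above Normal. The leukocyte markers shown were picked from 13 tested, and replicate 3 was the highest Yap-activated library in 8 of these 13.

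Class II genes are markers of professional antigen-presenting cells, so leukocyte markers were read in the same libraries. The summed level of 18 markers of antigen-presenting cells and other leukocytes was 148, 77.5 and 282 CPM in Yap-activated libraries, against 72.9, 65.0 and 72.2 CPM in Normal libraries. Of 13 tested, 5 were higher (Ptprc, Itgax, Ccr7, Csf1r and Cd68) and 8 did not pass, where 29.8% of all genes were called higher. Among genes of dendritic cells, Zbtb46 and Clec9a had log2 fold changes of -0.34 and -0.49 and Flt3 one of 1.38. None of these passed (adjusted p = 0.0522 for Flt3, edgeR). Flt3 did pass without Yap-activated replicate 3 (1.60, adjusted p = 0.0458), and Ccr7, called higher with all libraries, was at 3.42. Both entered the test through the Yap-activated group, in which they were higher, so that their values are given as a description. Ccr7 had 92, 31 and 51 reads in Yap-activated libraries, against 3, 10 and 3 reads in Normal libraries. Flt3 had 33, 17 and 24 reads in Yap-activated libraries, against 7, 14 and 6 reads in Normal libraries. Ptprc, the pan-leukocyte CD45 gene, had 33.3, 14.3 and 60.1 CPM in Yap-activated libraries, against 10.3, 9.46 and 10.2 CPM in Normal libraries, and Itgax, a gene of dendritic cells and macrophages, had 12.7, 8.87 and 37.9 CPM in Yap-activated libraries, against 2.85, 2.61 and 3.19 CPM in Normal libraries. In both genes replicate 3 was the highest Yap-activated library, as in 8 of the 13 markers tested; in Flt3, Zbtb46, Ccr7, Itgam and Cd79a it was not. When Yap-activated replicate 3 was left out, 5 of the 13 were higher and 2 (Adgre1 and Mrc1) lower, and Csf1r did not pass (adjusted p = 0.0752). In that fit 28.8% of all genes were called higher and 28.9% lower. None of the 18 markers was at 0 in all libraries, and 5 of them, among them Xcr1, Cd209a, Cd79b and Ms4a1, were below the filter, with at most 21 reads in any library.

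As a ratio of CPM to Ptprc, chosen after the values were seen, H2-Aa stood at 0.792, 2.23 and 2.39 in Yap-activated libraries, against 2.72, 2.83 and 2.24 in Normal libraries. H2-Ab1 to Ptprc was 1.93, 5.36 and 2.58 in Yap-activated libraries, against 2.43, 2.81 and 1.88 in Normal libraries. The groups overlapped in both ratios, with H2-Ab1 highest in Yap-activated replicate 2 and H2-Aa lowest in Yap-activated replicate 1. Cd74 to Ptprc was 1.21, 4.37 and 4.5999 in Yap-activated libraries, against 5.07, 6.01 and 4.63 in Normal libraries, so that every Yap-activated library lay below every Normal one. The part of leukocytes in the class II values was not tested. The summed level of 7 markers of T and natural killer cells was 7.29, 1.84 and 9.19 CPM in Yap-activated libraries, against 3.41, 2.33 and 3.54 CPM in Normal libraries.

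Of the genes that supply and load class I peptides outside the members (14 tested), 1 rose, 2 fell and 11 did not pass, where 59.5% of all genes were called. Npepps, a cytosolic aminopeptidase, rose by 0.92 on the log2 scale (adjusted p = 3.93e-04, edgeR). Of the 3 immunoproteasome subunits 0 passed with edgeR, and only Psmb9 had an unadjusted p under 0.05 (0.0466). Psmb8 had 4.91, 2.24 and 7.25 CPM in Yap-activated libraries, against 3.06, 3.56 and 2.97 CPM in Normal libraries (log2 fold change 0.59, adjusted p = 0.234). Psmb9 had 4.47, 2.60 and 7.53 CPM in Yap-activated libraries, against 10.5, 10.95 and 6.48 CPM in Normal libraries (-0.93, adjusted p = 0.0733), and passed without Yap-activated replicate 3 (-1.40, adjusted p = 0.00997). Psmb10 was at -0.05 (adjusted p = 0.833). No call was made for Psmb8 or Psmb10 without that library either.

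Of 16 tested regulators of MHC transcription and of the interferon gamma pathway, 8 rose, 5 fell and 3 did not pass, where 59.5% of all genes were called, 29.8% higher and 29.7% lower. The receptor genes Ifngr1 and Ifngr2 rose by 0.88 and 0.84 (adjusted p = 4.85e-04 and 1.41e-04), and Irf1, an interferon-induced activator, had 51.7, 37.3 and 48.0 CPM in Yap-activated libraries, against 18.1, 27.0 and 15.8 CPM in Normal libraries (1.17, adjusted p = 0.00258). Ifng itself had at most 2 reads in any library and was not tested. Of the subunits of NF-Y, the factor that binds the Y box, Nfyb rose by 0.87 and Nfyc fell by 1.16 (adjusted p = 1.39e-04 and 8.09e-05).

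Of 7 tested endosomal genes of class II processing, 3 rose, 2 fell and 2 did not pass, again beside 59.5% of all genes called. Leaving out Yap-activated replicate 3 gave 2 higher and 1 lower, where 28.8% of all genes were then called higher and 28.9% lower. Ctsl, cathepsin L, had 707, 427 and 388 CPM in Yap-activated libraries, against 78.5, 82.5 and 83.9 CPM in Normal libraries, and rose by 2.64 (SE 0.24, adjusted p = 5.84e-05, edgeR). Its highest library was replicate 1, not replicate 3. Ctss, cathepsin S, which degrades the invariant chain in professional antigen-presenting cells, had 31.8, 26.7 and 128 CPM in Yap-activated libraries, against 20.6, 25.6 and 24.6 CPM in Normal libraries, and did not pass (1.40, adjusted p = 0.0822; 0.31 without Yap-activated replicate 3, adjusted p = 0.0899). Of 7 tested class I-like genes outside the members, 2 rose, Procr, the endothelial protein C receptor, by 1.98 (adjusted p = 2.86e-04) and Ulbp1, a ligand gene of the receptor NKG2D, by 1.77 (adjusted p = 0.00134). Of the same list 2 fell, among them H60b, another NKG2D ligand gene, by 3.35 (adjusted p = 0.00103). Over all genes tested, 29.8% were called higher and 29.7% lower.

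Set side by side, the summed level of all class II members was 142, 182 and 678 CPM in Yap-activated libraries, against 114, 130 and 104 CPM in Normal libraries, with no overlap. Without H2-Ab1 the sum was 77.8, 105 and 524 CPM in Yap-activated libraries, against 89.1, 103 and 85.1 CPM in Normal libraries, and the groups overlapped. The summed level of all class I members was 1042, 1110 and 1383 CPM in Yap-activated libraries, against 1089, 1471 and 1313 CPM in Normal libraries, with overlap. The median spread among the 3 Yap-activated libraries, highest over lowest, was 5.19-fold for the 9 class II members and 1.99-fold for the 21 class I members, against 1.34-fold for all genes tested. Between Yap-activated replicates 1 and 2 alone it was 1.20-fold for class II and 1.24-fold for class I, against 1.19-fold for all genes tested. Among the 3 Normal libraries it was 1.41-fold for class II and 1.42-fold for class I, against 1.23-fold for all genes tested. The difference between class I and class II members was described by these counts and medians and was not tested.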

How the data were processed

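RNA was measured in 6 libraries. The authors deposited 1 table of raw whole-number read counts per gene symbol, not normalized, and every column of it was used. STAR 2.4.2a, DESeq2, GRCm38 and mm10 are named in the submitters' processing notes. What counted the reads, with which annotation, strand setting and treatment of multiply matching reads, was not given in the sources used here. Per the labels' protocols, the library kit (TruSeq Stranded mRNA) keeps strand.

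Genes were kept by filterByExpr (minimum count 10), which left 14600, scaled by TMM and tested in R 4.3.3 with edgeR 4.0.16 (robust quasi-likelihood F-test, Yap-activated over Normal, no other term). Benjamini-Hochberg adjustment ran over these 14600 genes, and a gene was called at an adjusted p under 0.05. SEs were taken as the absolute log2 fold change over the square root of F. P-values measure only the spread between libraries, which may be technical. The fit was tested on simulated data. Alternatives were other scalings and filters, DESeq2 1.42.0, voom in limma 3.58.1, non-robust dispersions, a replicate block and leaving out each library.

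Library totals ran from 25580734 to 48440033 counts. Coordinates and exon lengths come from GENCODE mouse release M21 (GRCm38), promoters from RefSeq (GRCm38.p6). Exon lengths cover all annotated exons of a gene, so CPM per kb is approximate. The members, lists, letters searched and rules were chosen with earlier results of these data known. Values in every library are printed for the members called and for a core of 19 members. Of the pathway lists, the 8 genes of smallest p and Ifng, Irf1, Psmb8, Psmb9 and Ctss are named, and single values of some other list genes are not reported here. H2-T22, H2-T24, Psmb10, Ulbp1 and the leukocyte markers named singly were picked, and the lists were read without Yap-activated replicate 3, after the values were seen.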

Additional observations from a re-analysis of the deposited data

How the results depend on the processing

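Scaling by library totals alone shifted the median log2 fold change over all genes to 0.50, and 76.6% of calls were then higher (50.0% with TMM). There, 7522 genes were called higher and 2299 lower, 8 class I members were called higher at a class I median of 0.37, and H2-K1 (0.28), H2-Q6 (0.47), H2-T23 (0.0076), H2-M3 (0.46), Erap1 (0.14), Tap1 (0.065), Tap2 (0.37), Tapbp (0.14) and Cd1d1 (0.34) changed sign without passing. With upper quartile scaling, H2-Q6 (0.036) and H2-M3 (0.021) changed sign. Under voom 1 class II member was called higher, against 4 with edgeR, where 58.7% and 59.5% of all genes were called. Same-numbered libraries deviated together only weakly (correlations of 0.0739, 0.0382 and 0.0799), so the numbers were not taken to pair them. With the replicate block, 1 class II member was called higher and 2 class I members lower, where 58.6% of all genes were called. Without single libraries, 1 to 4 class I members were called higher and 1 to 5 lower, 1 to 7 class II members higher, and 0 to 1 class I-like members lower. In these fits 48.1% to 57.7% of all genes were called. Leaving out 1 library also turned the sign of H2-K1 (-0.56 to 0.026), H2-Q6 (-0.46 to 0.20), H2-M3 (-0.47 to 0.19), Tap2 (-0.30 to 0.095), Cd1d1 (-0.64 to 0.031), H2-Eb1 (-2.48 to 1.97), H2-DMb1 (-0.75 to 1.35) and Cd74 (-0.0038 to 1.71). The calls of B2m, H2-Ab1 and H2-Q4 held in every setting run. Beyond the libraries left out, the cause was not tested. Members under about 1 CPM rest on few reads, and 3 libraries a group limit all calls.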
